A study of Mus musculus with 8 samples.

Results

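Interferon-stimulated genes are genes that cells transcribe in response to interferon, and 10 of them were described here in mouse intestinal crypts, the pockets of the gut epithelium in which its stem cells divide. They are Ifit1, Ifit2, Ifit3, Isg15, Irf7, Oas1a, Oas2, Oasl2, Ddx60 and Usp18, chosen by symbol and matched from Ensembl identifiers among the 45706 genes in the count tables. All 10 were found in both tables, and all 10 passed the filter on low counts together with 14481 others. RNA-Seq was performed on crypts of the small intestine (SI) and the colon (COL) of 4 wild-type C57BL/6N mice, which carried no engineered allele and received no treatment that the labels name, and whose ages are not given. Mice 1 and 5 were female and mice 2 and 3 were male. Each mouse gave 1 SI and 1 COL library, called SI1 to SI4 and COL1 to COL4 in the order of mice 1, 2, 3 and 5. The study compared both tissues in their ground state, and the question followed here is how far the 10 genes differ between SI and COL crypts and between libraries of the same tissue.

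Interferons are secreted proteins that act through surface receptors, Janus kinases and STAT factors. Type I and type III interferons lead to a complex of STAT factors and IRF9, which binds a promoter element rich in GAAA repeats and switches on antiviral genes. Gut epithelial cells respond strongly to type III interferon, and the products of these genes bind foreign RNA, tag proteins with ISG15 or restrain the pathway itself.

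RefSeq promoter windows of build GRCm38.p6, from 250 bases before to 50 bases after each start site, were at hand for 8 of the 10 genes, the exceptions being Oas2 and Usp18. They were searched on both strands for GAAANNGAAA, the core letters of the element that the interferon-activated complex binds, and overlapping matches were counted. A match was found in 5 of the 8 genes (Ifit1, Ifit3, Isg15, Oas1a and Ddx60) and in 3.99% of the 27025 genes with a window (3.44% of 32851 windows). Neither of the 2 windows of Ifit2 held one, nor did those of Irf7 and Oasl2. The 200 bases before the start site are shown for the 5 genes with a match and for Oasl2, an oligoadenylate synthetase-like gene without one. Each runs 5′ to 3′ on the strand of its gene, and capitals mark the matches.
Ifit1, chr19:34640689-34640888, plus strand: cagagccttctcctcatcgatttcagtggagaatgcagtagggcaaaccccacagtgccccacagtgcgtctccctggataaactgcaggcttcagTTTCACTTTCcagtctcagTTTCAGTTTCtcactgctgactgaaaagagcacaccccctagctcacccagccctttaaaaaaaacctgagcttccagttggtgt
Ifit3, chr19:34583329-34583528, plus strand: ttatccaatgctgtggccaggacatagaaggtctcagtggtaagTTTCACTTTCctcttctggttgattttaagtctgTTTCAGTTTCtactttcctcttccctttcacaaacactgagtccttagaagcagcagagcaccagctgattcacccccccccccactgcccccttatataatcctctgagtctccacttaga
Isg15, chr4:156200819-156201018, minus strand: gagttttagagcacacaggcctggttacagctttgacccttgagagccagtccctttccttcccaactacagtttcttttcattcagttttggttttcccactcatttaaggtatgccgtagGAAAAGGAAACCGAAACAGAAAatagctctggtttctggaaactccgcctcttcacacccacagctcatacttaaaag
Oas1a, chr5:120907526-120907725, minus strand: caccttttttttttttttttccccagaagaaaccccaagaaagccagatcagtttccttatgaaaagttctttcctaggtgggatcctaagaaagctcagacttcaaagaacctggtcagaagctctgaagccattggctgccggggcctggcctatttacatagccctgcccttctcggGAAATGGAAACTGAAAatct
Ddx60, chr8:61927887-61928086, plus strand: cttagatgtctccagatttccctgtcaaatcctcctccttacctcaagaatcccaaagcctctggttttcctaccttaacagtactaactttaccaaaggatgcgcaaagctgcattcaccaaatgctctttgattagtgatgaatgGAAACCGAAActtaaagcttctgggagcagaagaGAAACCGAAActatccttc
Oasl2, chr5:114896734-114896933, plus strand: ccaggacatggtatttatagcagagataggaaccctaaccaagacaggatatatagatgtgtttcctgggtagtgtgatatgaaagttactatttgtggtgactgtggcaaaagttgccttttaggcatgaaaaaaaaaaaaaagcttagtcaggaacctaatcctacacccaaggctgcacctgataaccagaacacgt

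In Ifit1 and Ifit3, which lie in the same gene cluster, both matches were on the opposite strand and had the same letters, TTTCACTTTC followed by TTTCAGTTTC. Isg15 held 3 matches, each overlapping the next, beginning 78, 72 and 66 bases before the start site, and Oas1a held 2 overlapping matches at 20 and 14 bases. Ddx60 held the match GAAACCGAAA 2 times. A match describes the letters of a window and not the binding of a factor, and a window without one says nothing of sites elsewhere.

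Total counts ranged from 21156329 to 30368676 in SI and from 15969428 to 32908060 in COL libraries, and counts of the 10 genes ranged from 26 (Ifit2 in COL1) to 22399 (Irf7 in COL4). Expression is given as CPM, the counts scaled to a common library size by TMM. The summed CPM of 8 villus enterocyte genes was 33536 to 93455 in SI and 17.5 to 113 in COL, so that the SI libraries, labelled as crypts, held abundant villus transcripts. SI1 had the highest villus sum and the lowest sums of 5 stem cell genes (30.7 CPM, the others having 217 to 310.4 CPM) and of 5 proliferation genes (90.0 CPM, the others having 240.4 to 421 CPM). Of 6 epithelial genes, Krt20 and Vil1 passed toward SI in the test described below, with log2 fold changes of 3.06 and 3.25, whereas Epcam (0.49), Krt8 (0.19), Cdh1 (-0.0075) and Cdx2 (-0.87) did not pass. Mitochondrial transcripts made up 4.83% to 7.35% of SI1, SI4, COL3 and COL4, whereas they made up 22.7% to 50.8% of the remaining libraries.

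Of the 10 interferon-stimulated genes, 5 were more highly expressed in SI than in COL crypts, and none was more highly expressed in COL. The 5 were Usp18, Ifit1, Ifit3, Ddx60 and Oasl2, their log2 fold changes lying between 2.01 and 2.79 in edgeR's quasi-likelihood test at an adjusted p-value below 0.05. Among all 14491 genes tested, 15.5% passed toward SI and 12.9% toward COL, 28.4% in all. The same 5 genes had every SI library above every COL library, as did 17.8% of all genes. Isg15 and Irf7 were higher in SI in each mouse without passing the threshold. Ifit2, Oas1a and Oas2 differed in direction between mice. The median log2 fold change of the 10 genes was 2.06, and that of all genes tested was -0.09.

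**Figure D1:**
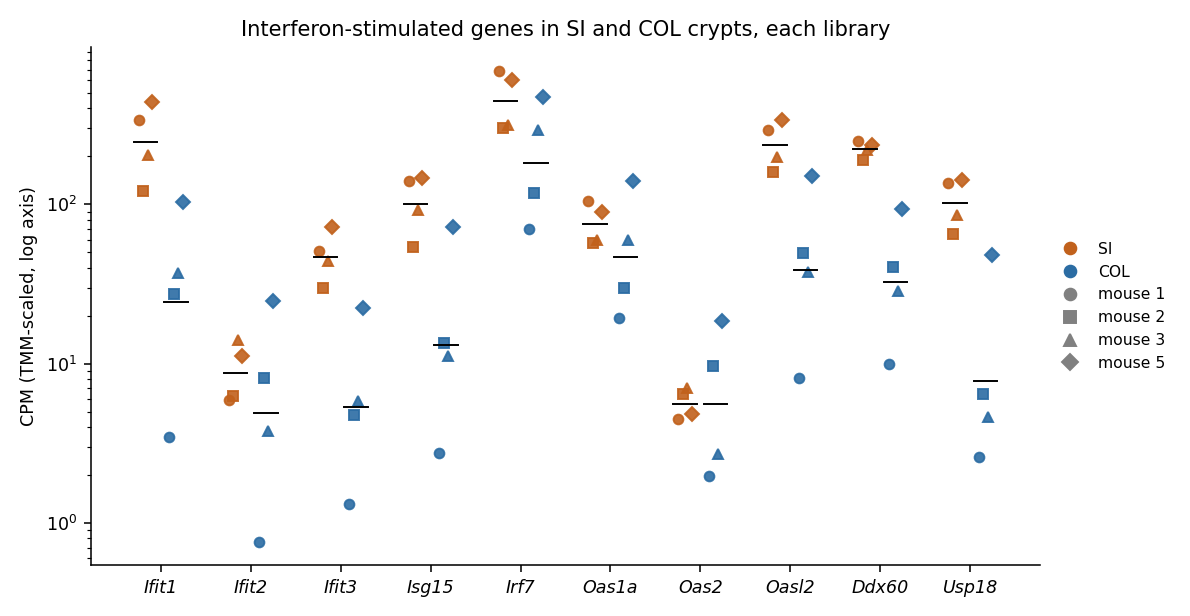
CPM (log axis) of the 10 genes in each library, with SI in orange, COL in blue, a symbol for each donor mouse and a bar at the mean of the log values of 4 libraries. For Ifit1, Ifit3, Oasl2, Ddx60 and Usp18 every SI library lies above every COL library, and COL1 is the lowest and COL4 the highest COL library in all 10 genes.

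When libraries were scaled by their size alone instead of TMM, the median of all genes shifted by -0.73, to -0.82, and that of the 10 genes was 1.25. Under that scaling, 1 gene, Ddx60, remained past the threshold, beside 7.69% of all genes toward SI. Relative to the median gene, the log2 fold changes of the 5 genes were 2.10 to 2.88 with TMM and 2.04 to 2.76 with library size alone. Blocked by donor mouse, 6 genes passed toward SI, Isg15 being added to the 5, beside 15.3% of all genes (28.1% in either direction). In bulk RNA, fewer cells that express a gene and less RNA per cell cannot be told apart.

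In the other analyses the count of genes passed toward SI was 6 with DESeq2, with limma-voom and with limma-voom and the donor block, beside 17.6%, 17.4% and 17.5% of all genes. It was 6 without the filter (6.47%), 5 with at least 10 counts in every library (16.8%), 5 after removal of mitochondrial and abundant genes (14.1%) and 4 with the mitochondrial share as a covariate (21.5%). With SI1, SI2, SI3 and SI4 left out in turn, 3, 5, 4 and 3 genes passed, beside 12%, 14.7%, 13.2% and 11.2% of all genes. With COL1, COL2, COL3 and COL4 left out in turn, 3, 3, 2 and 6 passed, beside 11.6%, 15.8%, 13.9% and 13.8%.

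**Figure D2:**
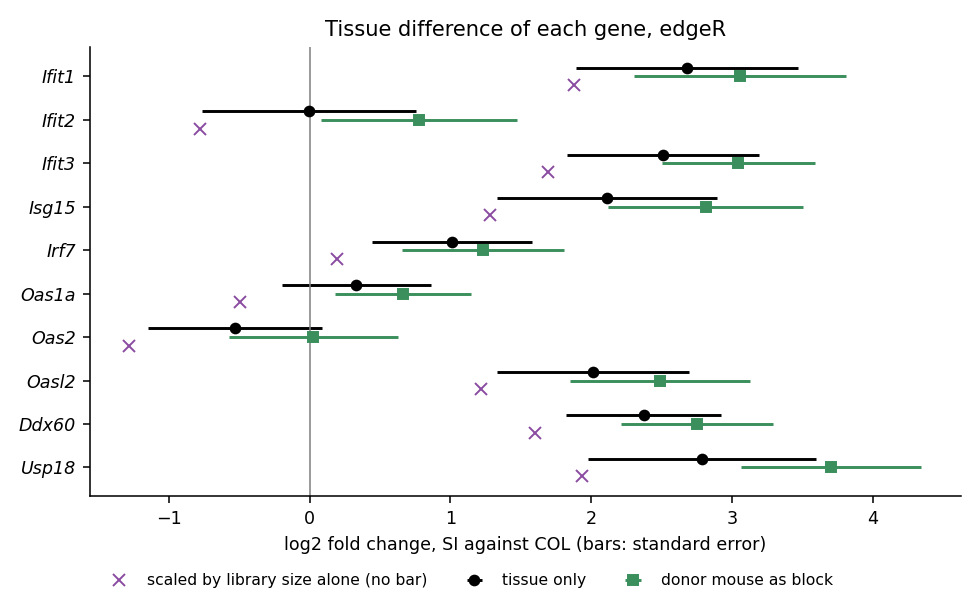
Log2 fold change of each gene, SI against COL, from edgeR with tissue as the only term (black circles), with the donor mouse as a block (green squares) and with scaling by library size alone (purple crosses), with bars of 1 standard error. Values to the right of 0 are higher in SI. Usp18, Ifit1, Ifit3, Ddx60, Isg15 and Oasl2 lie above 2 in both fits with TMM, and Ifit2 and Oas2 lie near or below 0 without the block.

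Ifit1, Ifit2 and Ifit3 encode tetratricopeptide-repeat proteins that bind foreign RNA or one another and hinder viral translation. Ifit1 (ENSMUSG00000034459) lies on chromosome 19 from 34640871 to 34650009. It had 337, 121, 203 and 435 CPM in SI1 to SI4 against 3.46, 27.2, 37.3 and 103 CPM in COL1 to COL4. The lowest SI library was above the highest COL library, but only by a small margin in a gene that spanned 29.7-fold within COL. The log2 fold change was 2.68 (SE 0.79, edgeR adjusted p = 0.0250, SE being the standard error and p-values being adjusted over all genes by the Benjamini-Hochberg method). In the fits without SI1, SI4, COL2 and COL3 the log2 fold change was 2.58, 2.40, 2.59 and 2.62, and edgeR's adjusted p rose to 0.0512, 0.0580, 0.0525 and 0.0588, so the call was lost at a difference of similar size.

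Ifit3 (ENSMUSG00000074896), on chromosome 19 from 34583531 to 34588731, followed Ifit1 at a lower level. It had 50.6, 30.0, 44.2 and 71.9 CPM in SI1 to SI4 against 1.32, 4.79, 5.86 and 22.4 CPM in COL1 to COL4, a log2 fold change of 2.51 (SE 0.68, edgeR adjusted p = 0.0172). It passed the threshold in each fit that left out 1 library. Of the 50-base stretches of its longest transcript, 51.2% also occur in the paralog Ifit3b, so the count of Ifit3 is uncertain. For Ifit1 that share was 7.13%, with Ifit1bl1 and Ifit1bl2.

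Ifit2 (ENSMUSG00000045932), on chromosome 19 from 34550694 to 34576419, was low in both tissues and did not pass. It had 5.89, 6.22, 14.0 and 11.1 CPM in SI1 to SI4 against 0.763, 8.14, 3.80 and 24.6 CPM in COL1 to COL4. Both ranges overlapped widely, with both the lowest and the highest value in COL. Between tissues it differed by -0.0031 on the log2 scale (SE 0.76, edgeR adjusted p = 0.998). Without COL4 the difference was 1.17 (edgeR adjusted p = 0.237), and without COL1 it was -0.39.

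Ddx60 (ENSMUSG00000037921), which encodes a helicase-like protein linked to the sensing of viral RNA, lies on chromosome 8 from 61928087 to 62038244. It had 249.5, 191, 218 and 237 CPM in SI1 to SI4 against 10.004, 40.6, 28.8 and 93.4 CPM in COL1 to COL4. The SI libraries were nearly alike, and all lay at least 2.04-fold above the highest COL library. The log2 fold change was 2.37 (SE 0.55, edgeR adjusted p = 0.00735). Ddx60 was the one gene of the 10 that passed the threshold toward SI in all 18 alternative analyses, with log2 fold changes from 1.60 to 3.09.

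The oligoadenylate synthetases Oas1a and Oas2 sense double-stranded RNA and make the messenger that activates RNase L, and Oasl2 is a related protein. Oasl2 (ENSMUSG00000029561), on chromosome 5 from 114896936 to 114912234, had 293, 158, 198 and 339 CPM in SI1 to SI4 against 8.16, 49.2, 37.4 and 150.0 CPM in COL1 to COL4. SI2 and COL4 nearly met. Its log2 fold change was 2.01 (SE 0.68, edgeR adjusted p = 0.0458). The p was close to the threshold, and edgeR's adjusted p was 0.0544 to 0.104 in the fits without SI1, SI3, SI4, COL1, COL2 or COL3, with log2 fold changes of 1.65 to 2.12.

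Oas1a (ENSMUSG00000052776), on chromosome 5 from 120896256 to 120907521, had 105, 57.5, 59.9 and 90.0 CPM in SI1 to SI4 against 19.4, 29.9, 59.3 and 139.8 CPM in COL1 to COL4. The highest value of the 8 was that of COL4, and the ranges overlapped. Its log2 fold change was 0.33 (SE 0.53, edgeR adjusted p = 0.685) and turned to -0.49 with scaling by library size alone. Its longest transcript shares 57.6% of its 50-base stretches with Oas1g and Oas1b, which makes its count uncertain.

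Oas2 (ENSMUSG00000032690), on chromosome 5 from 120730333 to 120749853, was likewise low in SI and COL. It had 4.48, 6.40, 7.05 and 4.85 CPM in SI1 to SI4 against 1.97, 9.70, 2.70 and 18.5 CPM in COL1 to COL4. The SI values fell inside the range of COL. The log2 fold change was -0.53 (SE 0.62, edgeR adjusted p = 0.564), 0.026 when blocked by donor mouse, 0.28 without COL4 and -0.85 without COL1.

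Isg15 encodes a ubiquitin-like protein that is attached to other proteins, and Usp18 encodes the protease that removes it and also dampens signalling at the type I interferon receptor. Isg15 (ENSMUSG00000035692), on chromosome 4 from 156199424 to 156200818, had 139, 54.1, 91.6 and 146 CPM in SI1 to SI4 against 2.76, 13.5, 11.2 and 72.0 CPM in COL1 to COL4. SI2 lay below COL4, and the remaining SI libraries lay above all COL libraries. The log2 fold change was 2.11 (SE 0.78, edgeR adjusted p = 0.0646), so Isg15 was not past the threshold. Blocked by donor mouse, the difference was 2.81 (edgeR adjusted p = 0.0157), and without COL4 it was 3.58 (edgeR adjusted p = 0.00142). In 11 of the 18 alternative analyses Isg15 did not pass either. Among these, the log2 fold change was 1.87 without COL3 (edgeR adjusted p = 0.137) and 1.28 with scaling by library size alone (edgeR adjusted p = 0.201).

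Usp18 (ENSMUSG00000030107), on chromosome 6 from 121245906 to 121270917, stood highest of the 10 genes in log2 fold change, 2.79 (SE 0.81, edgeR adjusted p = 0.0240). It had 135, 65.4, 86.1 and 142 CPM in SI1 to SI4 against 2.61, 6.46, 4.63 and 48.2 CPM in COL1 to COL4. COL1 to COL3 were close together, and COL4 stood far above them and below SI2. Without COL4 the log2 fold change was 4.57, and edgeR's adjusted p was 0.0525 without COL1 and 0.0535 without COL3, at log2 fold changes of 2.43 and 2.48.

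Of 4 genes of enzymes that attach ISG15, 3 passed toward SI, beside 15.5% of all genes. The median log2 fold change over the 4 was 2.80. Ube2l6, the conjugating enzyme, had 291 ± 115 CPM in SI against 16.9 ± 15.5 CPM in COL crypts (SD, n = 4), or 4.10 as log2 fold change. Herc6, the ligase in mouse, had a log2 fold change of 3.32, and Uba7, the activating enzyme, one of 2.29. Trim25, a further ligase, was at 0.91 (edgeR adjusted p = 0.0830).

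Irf7 encodes the transcription factor that amplifies the production of type I interferon. Irf7 (ENSMUSG00000025498), on chromosome 7 from 141262706 to 141266481, had 687, 301, 315 and 603 CPM in SI1 to SI4 against 69.7, 117, 291 and 469 CPM in COL1 to COL4. COL4 lay above SI2 and SI3. The log2 fold change was 1.01 (SE 0.57, edgeR adjusted p = 0.214), 1.59 without COL4 and 0.70 without COL1. The gene overlaps Phrf1 on the opposite strand, and since the use of the strand in counting is not given in the sources used here, reads of the overlap cannot be assigned to one of them.

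Levels were compared between genes per kilobase of exon. In SI crypts Isg15 was the highest with 143 ± 57.2 CPM per kilobase, followed by Irf7 with 126 ± 52.3 and Ifit1 with 103 ± 52.6 CPM per kilobase (SD, n = 4). Oas1a, Oasl2, Usp18, Ifit3 and Ddx60 followed, between 25.8 and 41.5 CPM per kilobase. Ifit2 with 2.37 ± 1.01 and Oas2 with 1.28 ± 0.28 CPM per kilobase stood apart, the range of Ddx60 and that of Ifit2 being the only neighbours without overlap. In COL crypts Irf7 was the highest with 62.7 ± 48.1 CPM per kilobase, followed by Oas1a with 32.9 ± 28.9 and Isg15 with 32.9 ± 42.0 CPM per kilobase. Each gene overlapped the next in that order, down to Oas2 with 1.85 ± 1.73 CPM per kilobase.

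The 10 genes varied far more between COL than between SI libraries. The median SD of log2 CPM over the 10 genes was 1.68 in COL and 0.53 in SI, whereas over all genes tested it was 0.56 in COL and 0.50 in SI. The SD was larger in COL for 10 of the 10 genes, as for 53.5% of all genes. From the lowest to the highest library, CPM spanned 1.31-fold (Ddx60) to 3.60-fold (Ifit1) in SI and 6.73-fold (Irf7) to 32.2-fold (Ifit2) in COL.

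In COL the order of the libraries was shared. COL4 was the highest COL library in 10 of the 10 genes (23.6% of all genes), COL1 the lowest in 10 of 10 (22.9%), and both held in 10 of 10 (6.42%). The mean log2 CPM of the 10 genes was 2.28, 4.26, 4.11 and 6.16 in COL1 to COL4. COL4 thereby reached the range of SI, where the mean was 6.53, 5.79, 6.23 and 6.71 in SI1 to SI4. This held for the mean and not for each gene. In the 5 genes that passed, COL4 lay below every SI library, whereas in Ifit2, Oas1a and Oas2 it lay above every SI library. Summed over the genes, COL1 had 120.1 CPM, COL2 307, COL3 482 and COL4 1141 CPM, against 991 to 2080 CPM in SI.

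**Figure D3:**
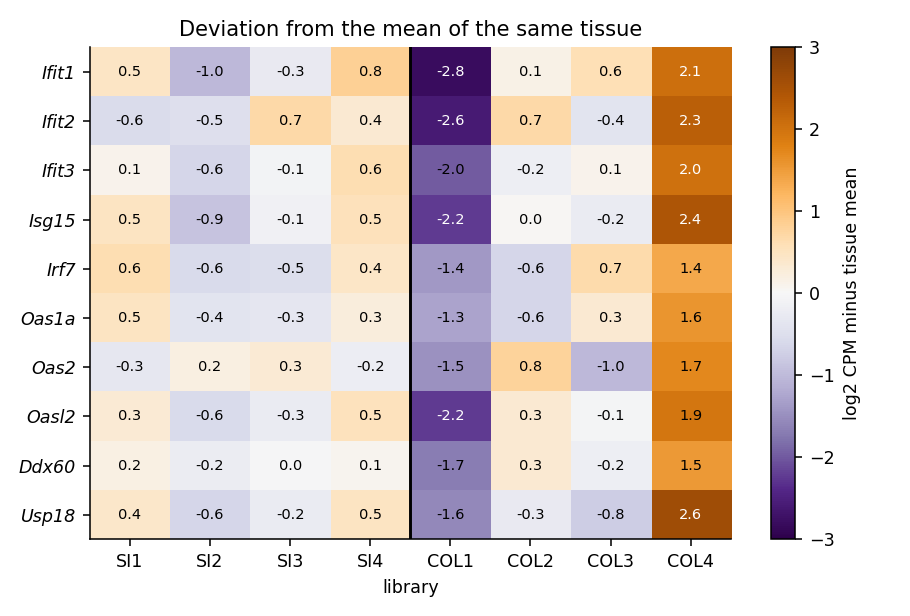
Log2 CPM of each gene in each library minus its mean over the 4 libraries of the same tissue, with purple below and orange above that mean. All 10 genes are below the mean in COL1 and above it in COL4, from -2.80 to -1.27 and from 1.36 to 2.60, while deviations in SI stay between -1.02 and 0.83.

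In SI the shared order was less wide. SI1 and SI4, from the female mice, were both above SI2 and SI3, from the male mice, in 8 of the 10 genes (25.4% of all genes), the exceptions being Ifit2 and Oas2. SI1 and SI4 also had the low mitochondrial shares, so sex and mitochondrial share cannot be told apart in SI. In COL, where COL3 and COL4 had the low shares, both were above COL1 and COL2 in 4 of the 10 genes (34.6% of all genes). The libraries COL1 and COL4, which bounded all 10 genes, both came from female mice.

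As a description over 8 libraries, which share their scaling, the genes' deviations from the tissue mean were correlated pairwise. The 45 values of Pearson r had a median of 0.90 and ranged from 0.41 to 0.98. Deviations reached -2.80 in COL1 and 2.60 in COL4 but stayed between -1.02 and 0.83 in SI, so r rests largely on COL1 and COL4. In SI1, Ifit2 (-0.56) and Oas2 (-0.32) were below the tissue mean while the other genes were above it.

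Within each mouse, the size of the tissue difference varied. In mouse 1 all 10 genes were higher in SI, with a median difference of 4.89 in log2 CPM, or 29.7-fold. In mouse 2 it was 1.84 (3.59-fold) with 8 of 10 genes higher in SI, in mouse 3 it was 2.42 (5.36-fold) with 10 of 10, and in mouse 5 it was 1.10 (2.14-fold) with 7 of 10. Mouse 5, whose colon gave COL4, had Ifit2, Oas1a and Oas2 higher in COL, and in mouse 2 the same held for Ifit2 and Oas2. In 7 of the 10 genes SI was higher in all 4 mice, as in 25% of all genes. Among the libraries of low mitochondrial share the median difference was 2.15, with 8 of 10 genes higher in SI, and among those of high share it was 3.23, with 10 of 10.

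The tissue difference was also compared between the sexes. None of the 10 genes passed in edgeR's test of the interaction of tissue and sex, and neither did any gene tested (0%). At an unadjusted p below 0.05 stood 0 of the 10 genes and 5.25% of all genes. DESeq2 called 11 of all genes and 0 of the 10. The standard errors of the interaction were 1.03 to 1.56 on the log2 scale, so with 2 mice per sex a difference of that size was not detectable.

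The summed marker genes of some other cell types were highest of COL in COL4. The villus enterocyte and myeloid sums were also lowest of COL in COL1 (17.5 and 3.73 CPM), while the lymphocyte and plasma cell sums were not. The summed CPM of 10 lymphocyte genes was 408, 127, 123 and 277 in SI1 to SI4 and 22.5, 19.0, 18.2 and 72.4 in COL1 to COL4, which places COL4 highest in COL and SI1 and SI4 highest in SI. The villus enterocyte sum was likewise highest in SI1 and SI4, at 93455 and 59514 CPM, against 33536 and 33871 CPM in SI2 and SI3. In COL the villus sum was 17.5, 63.0, 36.6 and 113 CPM in COL1 to COL4, lowest in COL1 and highest in COL4. Apoa1 alone gave 64614 and 40417 CPM of the sum in SI1 and SI4. Sis was lowest in SI1 (2049 CPM) and highest in SI3 (3374 CPM), and Alpi was higher in SI3 (843 CPM) than in SI4 (345 CPM). In the other villus genes SI1 and SI4 were both above SI2 and SI3. Of the 8 lymphocyte genes tested, 5 passed toward SI (15.5% of all genes), and COL4 was the highest COL library in 8 of 8 (23.6%). With the donor block 7 passed (15.3% of all genes), Ptprc and Cd3g being added, and with scaling by library size alone 2 passed (7.69%). The T cell genes Cd3e and Gzma reached 29.9 and 201 CPM in SI1, whereas the B cell gene Cd79a was under the filter and listed at 0 in SI1, SI3, SI4 and COL2.

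Genes of myeloid and plasmacytoid dendritic cells summed to 10.8 to 19.7 CPM in SI and 3.73 to 11.6 CPM in COL. COL4 again had the highest sum of COL, and it was the highest COL library in 2 of the 4 genes tested (23.6% of all genes). Itgam, an integrin gene of myeloid cells, passed toward SI with 7.98 ± 2.05 CPM in SI against 1.44 ± 0.74 CPM in COL crypts (SD, n = 4), or 2.45 as log2 fold change (SE 0.47, edgeR adjusted p = 0.00255). Itgax, a marker of dendritic cells, was at 2.13 and 0.47 CPM and did not pass (log2 fold change 2.19, edgeR adjusted p = 0.0736). Cd68 and Lyz2 did not pass either, at log2 fold changes of -0.76 and 0.0014 (edgeR adjusted p = 0.339 and 0.999). Csf1r, Adgre1, Siglech and Cd209a were under the filter and at or below 1.54 CPM in every library. The plasma cell genes did not differ one way. Sdc1, which epithelial cells express too, passed toward COL, with 26.5 CPM in SI against 83.4 CPM in COL (log2 fold change -1.65). Jchain and Igha, genes of secreted antibody, had log2 fold changes of 1.69 and 0.63 and did not pass, and blocked by donor mouse Jchain passed toward SI (2.49, edgeR adjusted p = 0.0332). Both were highest of COL in COL4, with 5.70 and 45.5 CPM. Stromal and endothelial genes summed to 0.641 to 6.34 CPM in SI and 2.46 to 8.76 CPM in COL. The part of other cell types in the levels of the 10 genes was not tested. SI1 had the highest villus and lymphocyte sums. Without SI1 and COL4, a pair chosen after the data had been seen, 6 of 10 genes passed toward SI, beside 11.1% of all genes. Without COL4 alone the count was also 6 (13.8% of all genes), and without SI1 alone it was 3 (12%). COL4 was the highest COL library in all 10 genes, so leaving it out raises the difference. These counts therefore do not test the part of other cell types.

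Interferon transcripts themselves were at or near 0. None of 21 ligand genes of type I, II and III interferon passed the filter, their highest counts being 8 in SI and 16 in COL libraries, and 9 of them had no count in any library. Ifnb1 had 6 counts in SI2 and SI3 and 5 in COL3, and Ifnl2, a type III interferon, had 16 counts in COL3 and 0 in the other libraries.

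The counts of this and the following lists stand beside 15.5% of all genes toward SI and 12.9% toward COL. With the donor block the share of all genes toward SI was 15.3%, and with scaling by library size alone it was 7.69%. Toward COL, 1851 of 14491 genes passed with the donor block and 4788 with scaling by library size alone. The 6 interferon receptor genes had a median log2 fold change of 1.54, and 4 passed toward SI. These were Il10rb and Ifnlr1, which together form the receptor of type III interferon, Ifngr2 and Ifnar1. Ifnlr1 had 17.2 ± 1.51 CPM in SI against 5.00 ± 2.32 CPM in COL crypts (SD, n = 4), or 1.79 as log2 fold change (SE 0.35, edgeR adjusted p = 0.00299). Il10rb had a log2 fold change of 1.92, Ifngr2 of 1.32 and Ifnar1 of 0.98. COL4 was the highest COL library in 1 of the 6 receptor genes, beside 23.6% of all genes. Ifnar2 (1.76, adjusted p = 0.0669) and Ifngr1 (0.12, adjusted p = 0.865, both by edgeR) did not pass, and with scaling by library size alone 2 of the 6 passed.

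Downstream of the receptors, 3 of 6 signalling genes passed toward SI, with a median log2 fold change of 0.99. The kinase gene Jak2 had 79.8 ± 6.03 CPM in SI against 18.5 ± 4.39 CPM in COL crypts (SD, n = 4), or 2.11 as log2 fold change. Stat2 had a log2 fold change of 1.17. Irf9, the DNA-binding partner of the STAT factors, was at 0.97 (adjusted p = 0.111), Tyk2 at 0.74 (adjusted p = 0.0724) and Jak1 at 0.63 (adjusted p = 0.102, all by edgeR). Blocked by donor mouse, 4 of the 6 passed, Irf9 being added (1.17, edgeR adjusted p = 0.0428), and without SI4, or with scaling by library size alone, 1 of the 6 passed.

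Of 6 other interferon regulatory factors tested, 3 passed toward SI, among them Irf1 and Irf8 with log2 fold changes of 1.63 and 0.92, and none did with scaling by library size alone. Irf2, Irf3 and Irf5 were at 0.57, 0.43 and -0.023. Of 6 genes that restrain the pathway, Socs3 passed toward SI (log2 fold change 2.74), at 17.2 ± 7.39 CPM in SI against 2.59 ± 1.31 CPM in COL crypts (SD, n = 4). Blocked by donor mouse, 2 of the 6 passed, Ptpn6 being added, and with scaling by library size alone 1 passed toward SI and 1 toward COL. Ptpn6, Pias1 and Ptpn2 were at 0.88, 0.72 and 0.30.

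Sensors of foreign nucleic acid did not all differ one way. Of 13 sensor and adaptor genes tested, 6 passed toward SI and 1 toward COL, with a median log2 fold change of 0.92. Ddx58, which encodes the RNA sensor RIG-I, had 93.5 ± 27.4 CPM in SI against 17.8 ± 8.43 CPM in COL crypts (SD, n = 4), or 2.39 as log2 fold change. The kinase gene Tbk1, the sensor gene Zbp1 and the adaptor gene Ticam1 had log2 fold changes of 2.33, 2.21 and 1.77. Tmem173, which encodes the DNA-sensing adaptor STING, was lower in SI, at 2.00 ± 0.21 CPM against 6.40 ± 2.36 CPM in COL, a log2 fold change of -1.68 (SE 0.40, edgeR adjusted p = 0.00870). Without SI1 and COL4, none of the 13 passed toward COL, beside 1292 of the 14793 genes tested in that fit. Trim25, Ikbke and Myd88 did not pass, and with scaling by library size alone 3 of the 13 passed toward SI.

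Among 38 further antiviral interferon-stimulated genes tested, 17 passed toward SI and 0 toward COL, with a median log2 fold change of 1.67. The Ifit1 paralog Ifit1bl2 had 473 ± 118 CPM in SI against 17.6 ± 11.1 CPM in COL crypts (SD, n = 4), or 4.75 as log2 fold change. Cmpk2, Ifi27l2b and Herc6 followed with 3.55, 3.49 and 3.32. Lgals3bp (1.31), Ifit1bl1 (1.71) and Ifitm2 (-1.86) did not pass. COL4 was the highest COL library in 30 of the 38 (23.6% of all genes). With the donor block, 19 passed toward SI, Lgals3bp among them, and 1, Ifitm2, toward COL. With scaling by library size alone 11 passed toward SI and 5 toward COL, beside 4788 of all 14491 genes toward COL.

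The median log2 fold change of the 12 interferon-gamma-inducible GTPase genes tested was 1.03. Of these genes, whose families are linked to defence against intracellular parasites, 3 passed toward SI. They were Igtp, Ifi47 and Irgm2, with log2 fold changes of 3.54, 2.58 and 1.85. Irgm1, Gbp7 and Gbp3 were at 0.02, 0.50 and 0.27, and Gbp2 and Iigp1, at -1.82 and -2.56, did not pass either (edgeR adjusted p = 0.134 and 0.101). In the fit blocked by donor mouse 4 passed toward SI, Gbp6 being added, whereas with scaling by library size alone 1 passed toward SI and 2 toward COL, with a median of 0.29. COL4 was the highest COL library in 11 of the 12 (23.6% of all genes). The promoter motif was present in 3.99% of all genes with a window. It was found in 9 of the 10 GTPase genes with a window, 13 of 30 further antiviral genes and 11 of 20 interferon ligand genes. It was present in 3 of 11 sensor genes, 2 of 11 MHC class I genes, 1 of 6 regulatory factors, 1 of 5 signalling genes, 1 of 5 inhibitor genes, 0 of 5 receptor genes and 0 of 4 genes of ISG15 conjugation.

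Of 13 genes of antigen presentation by MHC class I, 10 passed toward SI, with a median log2 fold change of 2.15. B2m, the invariant chain of MHC class I, had 3699 ± 1607 CPM in SI against 345 ± 258 CPM in COL crypts (SD, n = 4), or 3.42 as log2 fold change. The immunoproteasome genes Psmb8 and Psmb9 had log2 fold changes of 2.99 and 2.60, and the peptide transporter gene Tap1 one of 2.70. Nlrc5, H2-Q4 and H2-Q7 were at 1.82, 1.27 and 0.98 and did not pass. COL4 was the highest COL library in 11 of the 13 (23.6% of all genes), and with scaling by library size alone 6 passed. The donor block raised the count to 11, Nlrc5 being added (2.22, edgeR adjusted p = 0.0367). Counted once each, 101 other genes of the pathway lists were tested, with a median log2 fold change of 1.41. Of these, 48 passed toward SI and 1 toward COL, beside 15.5% and 12.9% of all genes.

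**Figure D4:**
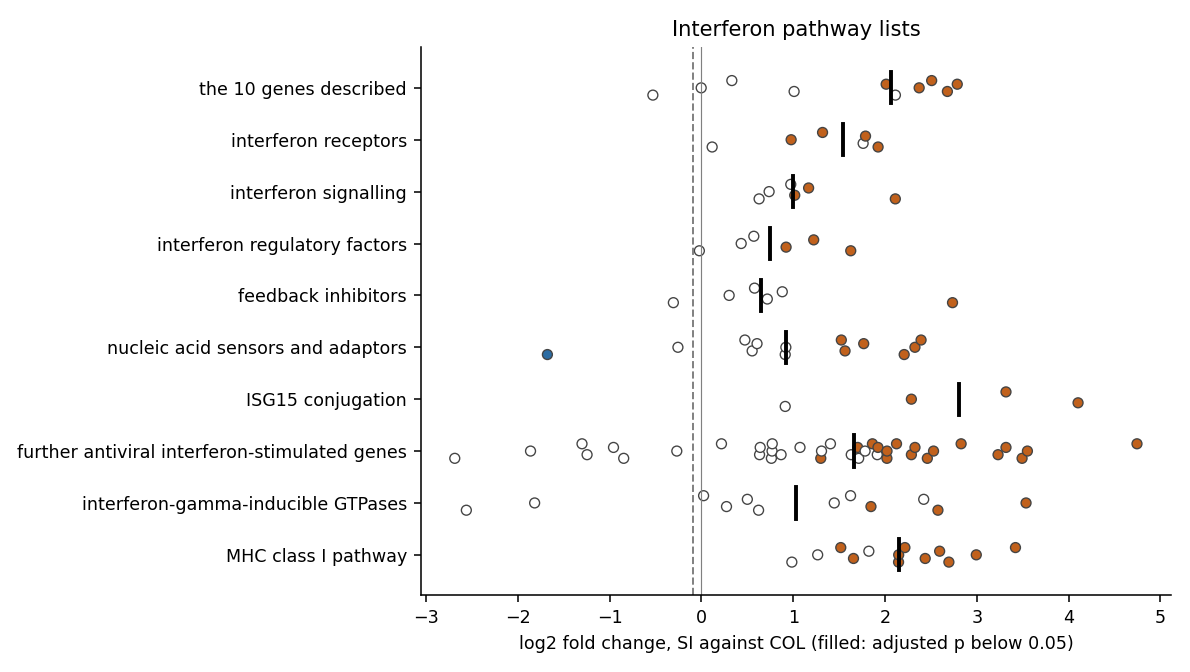
Log2 fold changes, SI against COL, of the genes tested in each list of the interferon pathway, filled where the adjusted p was below 0.05 (orange higher in SI, blue higher in COL), with a black bar at the median of the list and a dashed line at the median of all genes, -0.09. The medians run from 0.65 for the feedback inhibitors to 2.80 for ISG15 conjugation, and the 1 gene filled on the left is Tmem173.

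The genes most like the 10 were sought among 9449 other genes with a mean of at least 5 CPM, by Pearson correlation with the mean log2 CPM of the 10 genes over 8 libraries. As a description, those with the highest r were Rtp4 (r = 0.997), Irf9 (0.991), Xaf1 (0.981), Cr1l (0.979) and Slfn2 (0.978). Rtp4 had 105, 41.1, 68.8 and 125 CPM in SI1 to SI4 against 1.97, 12.4, 13.0 and 71.2 CPM in COL1 to COL4, thus the same lowest and highest library in each tissue as Ifit1. After subtraction of the tissue mean they were Rtp4 (0.995), Tm4sf5 (0.985), Slfn2 (0.984), Irf9 (0.984) and Gm12250 (0.965). Tm4sf5, a tetraspanin-like gene, followed the libraries of each tissue at very unequal levels, with 899 to 1508 CPM in SI and 1.06 to 8.56 CPM in COL.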

How the data were processed

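The authors sequenced RNA of SI and COL crypts, isolated with EDTA from 4 mice that the labels number. The methods, given for organoid cultures, scrape villi off the SI and keep the colon longer and in more EDTA. Reads were trimmed with Trimmomatic (0.36) and aligned and counted with STAR (2.5.2b) on mm10, while the submitters' processing notes list mm9 and mm10. The authors deposited whole-number counts per Ensembl gene, without normalization. Which annotation was used, and whether counting was stranded, is not given in the sources used here. Symbols and coordinates came from GENCODE vM21 (GRCm38), which holds 45143 of the 45706 genes, and promoter sequences from RefSeq (GRCm38.p6).

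The main test was the quasi-likelihood test of edgeR (4.0.16, R 4.3.3) of SI against COL, with TMM scaling, filterByExpr and Benjamini-Hochberg adjustment over 14491 genes (threshold 0.05). CPM was computed from these counts with TMM-scaled library sizes, and log2 CPM used a prior count of 2. Alternatives were scaling by library size, DESeq2 (1.42.0), limma-voom (3.58.1), the donor mouse as block, other filters, the mitochondrial share as covariate, removal of mitochondrial and abundant genes, and leaving out libraries. The methods name limma without a donor term. SI and COL libraries of the same number share an animal. Over all genes, the correlation of their deviations was -0.24, 0.39, -0.08 and 0.33 in mice 1, 2, 3 and 5. No pair of libraries within a tissue was alike within sampling noise. The fits were tested on simulated data.

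The members and gene lists were chosen with earlier results of these data known. All 10 genes are named. Of each other list, up to 4 genes past the threshold with the largest change and up to 3 of the highest CPM that did not pass are named, as are the 5 genes most like the 10 by each measure. Ifnb1, Ifnl2, Gbp2, Gbp6, Iigp1 and the marker genes named were chosen after their values were seen. Of the lists, Irf4, Tlr7, Tlr9, Ifi44l, Gbp5, Tgtp1 and Gvin1 were under the filter, and Ddx60l was not matched. A few genes that this rule would name are not reported here. Colonocyte genes summed to 470.3 to 1194 CPM in SI and 4613 to 31876 CPM in COL, and Paneth cell genes to 263 to 2952 CPM and 13.4 to 72.9 CPM. Car1 alone had 30001 CPM in COL3. Of the 5 colonocyte genes, 3 passed toward COL and Ceacam20 toward SI (log2 fold change 2.26, edgeR adjusted p = 0.0129). Of the 5 Paneth cell genes, 4 passed toward SI, and Ang4 did not pass (-0.22, edgeR adjusted p = 0.836). The shares of all genes were 12.9% toward COL and 15.5% toward SI. Counting error is small beside the spread between mice, which limits the precision.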

Additional observations from a re-analysis of the deposited data

Results flagged for a closer look

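In the COL libraries, 2 genes had a library whose distance from the nearest other, relative to the range of the group, was beyond Dixon's 95% limit. Isg15 had 72.0 CPM in COL4, against 13.5 CPM in the next library, COL2. Usp18 had 48.2 CPM in COL4, against 6.46 CPM in COL2. The 10 genes were examined in each tissue, 20 groups of 4 libraries in all, and chance alone marks about 1 in 20 such groups. Both of these libraries are COL4, which was the highest COL library in all 10 genes, and its cause was not tested.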

How the results depend on the processing

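The count of genes called toward SI, 5 of the 10, fell to 1 with scaling by library size alone, which moves all genes toward COL, and was 4 with the mitochondrial share as a covariate. It was 5 or 6 with DESeq2, limma-voom, the donor block and the other filters. With 1 library left out it ranged from 2 (without COL3) to 6 (without COL4), and it was 3 without SI1, SI4, COL1 or COL2. With the replicate block the count was 6 and Isg15 was added, and the block changed no other call among the 10. The count of genes whose tissue difference differed between the sexes was 0 in each alternative run. Without COL4, where one female COL library remains and is assumed to vary like the others, 9 of the 10 genes had an unadjusted p below 0.05 for the interaction in edgeR's test, beside 6.51% of all genes, and none passed after adjustment. Without COL1 it was 3 of the 10, beside 2.6% of all genes, and in the other 10 alternatives it was 0.

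Ddx60 kept its call in 18 of 18 alternatives and Ifit3 in 17, the exception being scaling by library size, while Oasl2 lost it in 8, Ifit1 in 5 and Usp18 in 3. Isg15 gained one in 7. Irf7 kept its direction in 18, with log2 fold changes from 0.20 to 1.59. The direction turned in 3 genes that never passed. For Ifit2 (-0.0031) it became 0.78 with limma-voom, 0.33 with limma-voom and the block, 0.78 with the block in edgeR and 1.34 without SI1 and COL4, and leaving out 1 library gave -0.39 to 1.17, the positive values being 0.18 without SI1, 0.16 without SI2 and 1.17 without COL4. For Oas2 (-0.53) it became 0.026 with the block, 0.28 without COL4 and 0.38 without SI1 and COL4, within -0.85 to 0.28 for 1 library left out. For Oas1a (0.33) it became -0.49 with scaling by library size. The cause was not tested. Among all genes, 4116 were called, with 2253 toward SI. Scaling by library size gave 5903 (1115 toward SI), DESeq2 5118 (2550), no filter 4523 (2143), and removal of mitochondrial and abundant genes 4250 (2057). With 4 mice per tissue, the spread within COL limits what can be called.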
